A study of Homo sapiens with 18 samples.

Results

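The heat shock proteins and cochaperones described here are 10 genes: HSPA1A, HSPA1B, HSPA6, HSPA8, HSPH1, DNAJB1, HSP90AA1, HSPB1, HSPD1 and HSPE1. Their probes were found by gene name among the 41000 distinct non-control probes of the array. The names gave 20 probes for 9 of the 10 genes, and all 20 were among the 28665 probes kept after filtering. No probe carried the name HSPA1B. HSPA1A and HSPA1B are near-identical copies, so an HSPA1A signal may include RNA of HSPA1B and the gene of origin is uncertain.

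Cells of the A549 line, an established human lung adenocarcinoma line of epithelial origin, were exposed for 2 h in serum-free medium to Ludox silica nanoparticles (NPs) and then left to recover in complete medium. The SM30 NPs have a diameter of 9 nm and the AS30 NPs of 18 nm. RNA from each of 18 cultures was hybridised to a one-colour Agilent array, in 6 groups of 3 biological replicates lettered A, B and C. The groups were cells treated with SM30 after 3 h of recovery, cells treated with AS30 after 3 h, cells treated with AS30 after 22 h, together with 3 matching control groups that went through the same steps without NPs. All groups, controls included, therefore shared the serum-free step and the return to serum, and the results hold for this cancer cell line.

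Heat shock proteins bind unfolded protein chains, keep them from aggregating and help them to fold. Members of the HSP70 family work in cycles of ATP hydrolysis that J proteins start and nucleotide exchange factors end, while HSP90 acts later on near-native clients and the mitochondrial chaperonin HSP60 encloses its clients under a lid. When unfolded protein accumulates, heat shock factor 1 (HSF1) binds repeated GAA units in the promoters of many of these genes, and HSPA1A, HSPA6, DNAJB1 and HSPH1 are among the genes it induces most strongly in human cells.

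Values are log2 of the background-corrected spot signal after quantile normalisation, so a difference of 1 is a doubling. In RNA of whole cultures, fewer cells with a transcript and less of it per cell cannot be told apart. Levels of different probes are not comparable and are set only against the same probe on other arrays. Ratios were taken between a treated array and the control array with the same letter. A difference was called when limma's moderated test had a Benjamini-Hochberg adjusted p under 0.05 over all probes. The SE of a mean ratio is that of limma's fit, which pools the spread of the pairs in all comparisons with controls. It is the same in each of them for a probe measured on every array. It does not measure the spread of the pairs named. The intervals rest on the same fit. For differences between control groups the SE pools the spread of arrays within all 6 groups. Between 51.9% and 72.4% of the spots of an array were well above background, and no spot was saturated. The 5 epithelial markers KRT8, KRT18, KRT19, EPCAM and CDH1 were well above background on all 18 arrays, counted by the best probe of each gene. Of the 5 alveolar type II markers, SFTPC, SFTPA1 and ABCA3 were so on 18 arrays, NKX2-1 on 17 and SFTPB on 1. Markers of other cell types were mixed. PECAM1, COL3A1 and PDGFRB were well above background on 0 arrays, CDH5 and DCN on 1, PTPRC on 5, VWF on 11, and CD14, CD3E and COL1A1 on 18. The arrays lay on 5 slides, and no slide held both SM30 and AS30 material.

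At 3 h after SM30 exposure, 1 of the 9 measured genes was called, HSPA1A, which was lower than in controls. Among all probes tested in this comparison 7.49% were called, 4.35% higher and 3.13% lower, so 1 of 9 is not far from the background share. After AS30 exposure 0 of 9 genes were called at 3 h, where 2.52% of all probes were (1.5% higher and 1.01% lower), and 0 of 9 at 22 h, where 3.58% of all probes were (2.54% higher and 1.04% lower). At an unadjusted p under 0.05 the counts were 3, 0 and 1 of 9, against 25.1%, 24.4% and 22.9% of all probes. The median log2 ratio of the 9 genes was -0.15 after SM30, -0.14 after AS30 at 3 h and 0.02 after AS30 at 22 h, where the medians of all probes were -0.05, 0.01 and -0.00. When arrays were scaled to their 75th percentile in place of quantile normalisation, the median of the 9 was -0.03 after SM30 but turned to 0.13 after AS30 at 3 h and to -0.01 at 22 h, so the sign of the AS30 medians depended on the scaling. With slide as a fixed block the medians were -0.27 after SM30, 0.15 after AS30 at 3 h and 0.08 at 22 h. The sign for AS30 at 3 h therefore also depended on whether slide was in the fit.

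**Figure D1:**
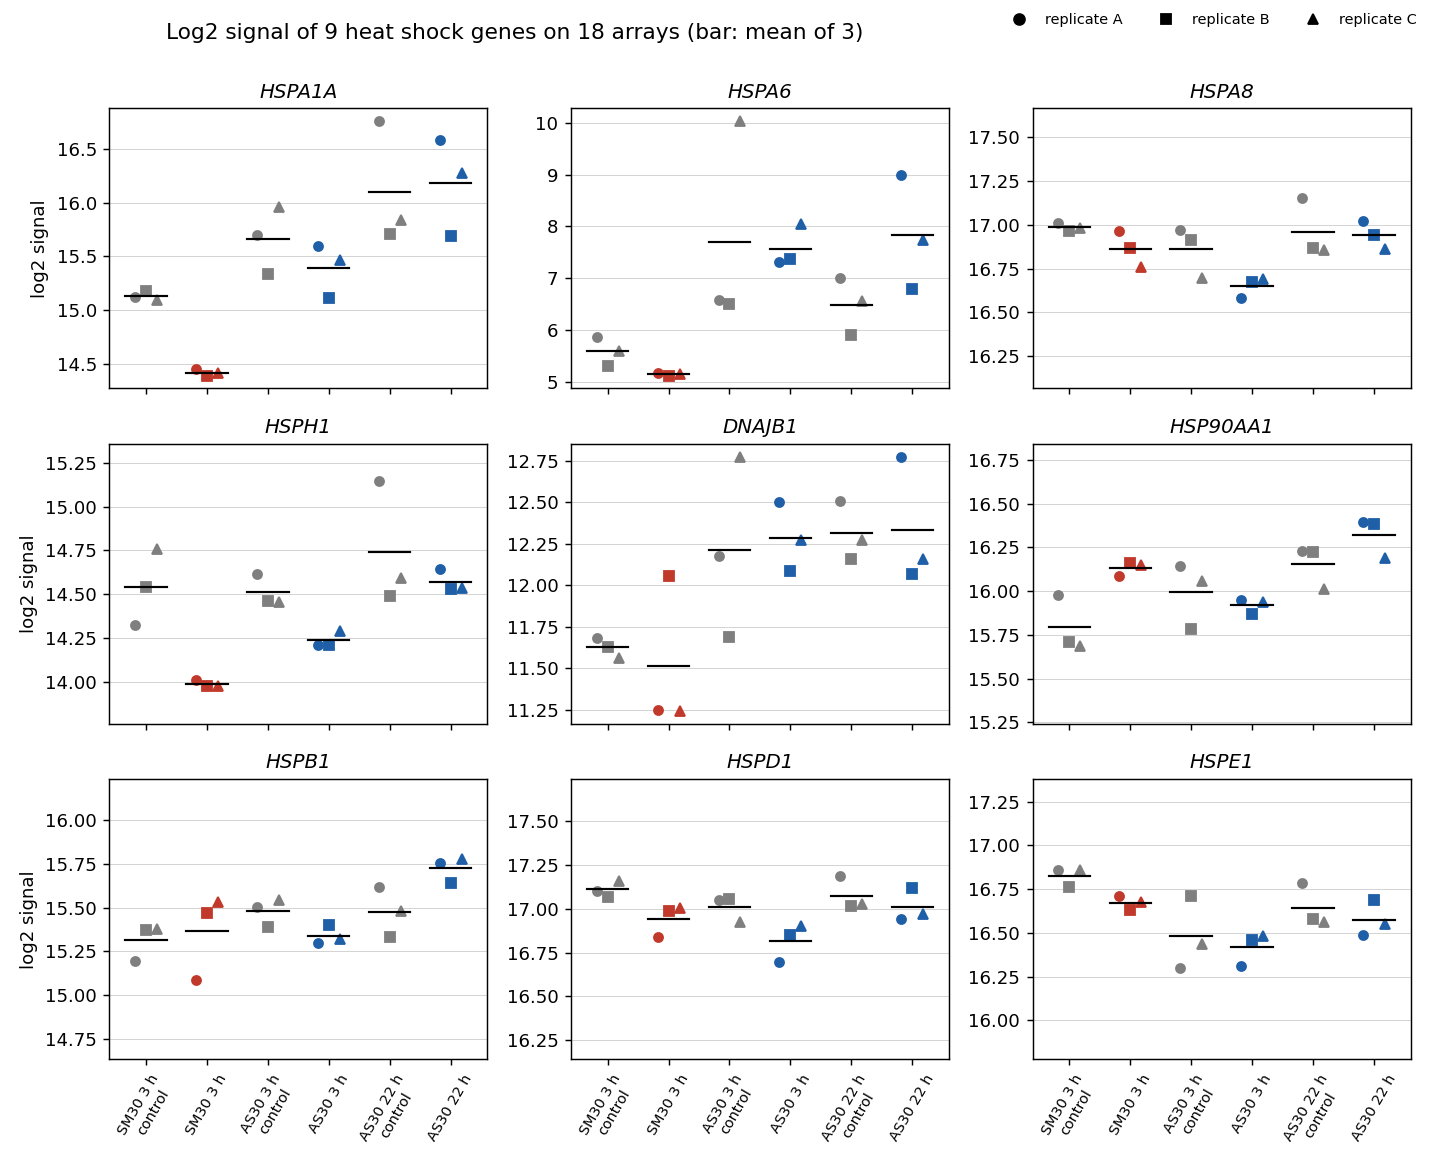
Log2 signal (vertical axis, one panel per gene) of the probe with the highest mean signal for each of the 9 measured genes, for the 6 groups on the horizontal axis. Each point is 1 array, its shape gives the replicate letter and the bar is the mean of 3 arrays. HSPA1A lies between 14.39 and 14.45 on the SM30 arrays and between 15.09 and 15.18 on their controls, while HSPA6 reaches 10.03 on a single AS30 3 h control array.

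HSPA1A encodes the stress-inducible cytosolic HSP70, and it fell after SM30 exposure. Its log2 signal was 14.45, 14.39 and 14.41 in SM30 replicates A, B and C and 15.12, 15.18 and 15.09 in the control replicates A, B and C. All SM30 arrays were below all of their controls, with a gap larger than the spread within either group. The log2 ratios of the 3 pairs were -0.67, -0.79 and -0.68. Their mean was -0.71 ± 0.14 (pooled SE of the fit, n = 3 pairs, adjusted p = 0.0224), which is 39.0% less signal. In the fit of arrays without pairing by letter it was not called, with adjusted p = 0.112 at the same log2 ratio. That fit pools the spread of arrays within all 6 groups. Their SD was 0.03 and 0.04 in SM30 and its controls and between 0.25 and 0.57 in the AS30 groups and their controls. Same-letter deviations of the SM30 pairs correlated only at 0.09, -0.004 and -0.01 over probes measured on every array. With slide as a fixed block the ratio was -0.68 and adjusted p = 0.377. The call was lost when any SM30 pair was left out, with log2 ratios from -0.73 to -0.68 and adjusted p from 0.0893 to 0.136, and also with 75th percentile scaling, where the log2 ratio was -0.54 and adjusted p = 0.0862. On the slide that held SM30 replicate A and all of the SM30 controls, the difference was -0.68.

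In hg18, the build of the array annotation, the brightest probe is at chr6:31893470-31893529 on the plus strand, and the others lie upstream of it, at chr6:31892924-31892983 and chr6:31892373-31892432. After SM30 their log2 ratios were -0.49 ± 0.22 (SE, n = 3, adjusted p = 0.202) and -0.67 ± 0.19 (SE, n = 3, adjusted p = 0.0658). Both were lower in 3 of 3 pairs, without overlap of the groups, and neither passed the threshold. For the mean of all HSPA1A probes the log2 ratio was -0.63 and adjusted p = 0.0627.

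After AS30 the HSPA1A probes differed in direction at 3 h. The brightest probe read 15.59, 15.12 and 15.46 in AS30 replicates A, B and C and 15.70, 15.33 and 15.96 in the controls. These groups overlapped, the ratio was lower in 3 of 3 pairs, and its mean was -0.27 ± 0.14 (SE, n = 3, adjusted p = 0.267). Over 20 alternative settings this mean lay between -0.36 and 0.77, with 1 change of sign. The probe at chr6:31892924-31892983 gave ratios of 0.61, 0.50 and -0.59 in pairs A, B and C, and the probe at chr6:31892373-31892432 gave 0.37, 0.24 and -0.57. For both, pair C went against the others, and the control array of replicate C was the brightest of its group, at 14.36 against 13.42 and 12.85 for the former and at 13.97 against 13.19 and 12.70 for the latter. On that control array 52.4% of spots were well above background, against 61.7% and 61.9% on control replicates A and B. Whether this bears on its values was not tested. At 22 h the brightest probe read 16.58, 15.69 and 16.27 in AS30 replicates and 16.76, 15.71 and 15.84 in controls, with a mean log2 ratio of 0.08 ± 0.14 (SE, n = 3, adjusted p = 0.780). Its neighbours gave 0.45 ± 0.22 (adjusted p = 0.257) and 0.34 ± 0.19 (adjusted p = 0.313), higher in 3 of 3 pairs each. None of the 3 probes was called for AS30 at either time.

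**Figure D2:**
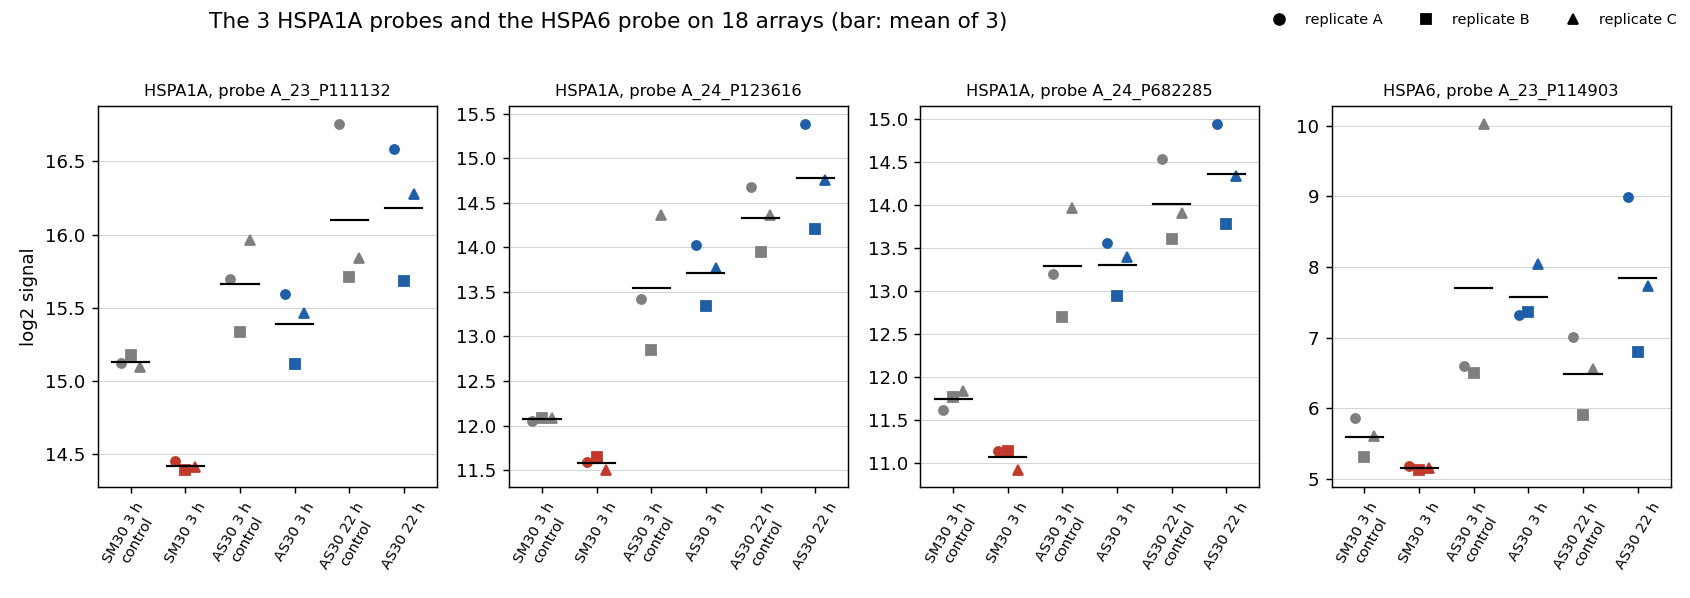
Log2 signal (vertical axis) of the 3 HSPA1A probes, ordered from the most downstream at the left, and of the HSPA6 probe at the right, for the 6 groups. Each point is 1 array and each bar the mean of 3. The SM30 arrays are lowest in each panel, and AS30 3 h control replicate C is the highest of its group in each panel, with 10.03 for HSPA6 against 6.59 and 6.50.

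HSPA6 encodes an HSP70 that is nearly silent without stress, and its probe lies at chr1:159762782-159762841 on the plus strand of hg18. It was the only member with an array not well above background, AS30 22 h control replicate B, and was well above background on 17 of 18. Its log2 signal was 5.18, 5.13 and 5.15 after SM30 and 5.87, 5.31 and 5.60 in the controls, so these groups did not overlap. Yet the mean log2 ratio of -0.44 ± 0.49 (SE, n = 3, adjusted p = 0.622) was within the error of the fit. That error also pools the AS30 pairs, of which 1 was at -1.99. In the AS30 experiment at 3 h HSPA6 read 7.32, 7.37 and 8.04, and in the controls 6.59, 6.50 and 10.03. The control array of replicate C stood apart, so the pair ratios were 0.72, 0.87 and -1.99 and their mean was -0.13 ± 0.49 (SE, n = 3, adjusted p = 0.888). Without that pair the log2 ratio was 0.79 and adjusted p = 0.0781.

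At 22 h after AS30, HSPA6 had the largest ratio of any member, without passing the threshold. It read 8.99, 6.80 and 7.73 in AS30 replicates A, B and C, and 7.01, 5.90 and 6.56 in the controls. Each treated array exceeded the control of its letter, by 1.97, 0.90 and 1.17, although the groups overlapped. The mean log2 ratio was 1.35 ± 0.49 (SE, n = 3, adjusted p = 0.153), with a 95% interval from 0.23 to 2.47. When AS30 3 h pair C, which enters the pooled error, was left out, the value stayed at 1.35 and adjusted p was 0.0237. Against the control on the same slide, replicate C, the 3 AS30 arrays were higher by 1.28 on average. With normexp background correction the log2 ratio was 0.38 and adjusted p = 0.426. The spread of HSPA6 over the 12 AS30 and AS30 control arrays was 4.13 between the lowest and the highest array, against 0.74 over the 6 arrays of the SM30 experiment.

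HSPA8 encodes the constitutive HSC70, which folds new proteins without stress. At 3 h after SM30 its brightest probe read 16.96, 16.87 and 16.76 against 17.01, 16.96 and 16.98 in controls, with a mean log2 ratio of -0.12 ± 0.11 (SE, n = 3, adjusted p = 0.542). After AS30 it read 16.58, 16.67 and 16.69 against 16.97, 16.91 and 16.70 at 3 h, where the groups did not overlap by a narrow margin, and the ratio was -0.21 ± 0.11 (SE, n = 3, adjusted p = 0.283). The sign of the AS30 ratio at 3 h turned with 75th percentile scaling, to 0.19. At 22 h after AS30 the log2 ratio was -0.02. The other 3 HSPA8 probes ranged from -0.25 to -0.07 after SM30, from -0.11 to 0.15 after AS30 at 3 h and from -0.05 to 0.25 at 22 h, and none was called.

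The HSP70 genes are shown with the bases before their start, since the HSF1 element is a known feature of these promoters. In the RefSeq windows of build GRCh38.p14 the 250 bases before each annotated start were searched on both strands for 2 alternating units, GAANNTTC or TTCNNGAA, and for the HSF1 element of 3 alternating units, in which any 2 bases and another GAA or TTC follow in the alternate orientation. Each 3-unit match therefore holds 2-unit matches. All 10 members had a window, and 4 of the 10 genes (HSPA6, HSPA8, HSP90AA1 and HSPD1) held 3 units in at least 1 of their windows, against 0.557% of the 27305 genes with a window. At least 2 units stood in the windows of 8 of the 10, against 14% of all genes, and HSPH1 and HSPE1 held neither pattern. The HSPD1 matches lie between the HSPD1 start of that window and the HSPE1 start, outside the 250 bases searched for HSPE1. The windows shown are chr6:31815293-31815542 on the plus strand for HSPA1A, chr1:161524290-161524539 on the plus strand for HSPA6, and chr11:123062137-123062386 on the minus strand for HSPA8. They run 5′ to 3′ and end at the base before the start, with every match in capitals.
HSPA1A: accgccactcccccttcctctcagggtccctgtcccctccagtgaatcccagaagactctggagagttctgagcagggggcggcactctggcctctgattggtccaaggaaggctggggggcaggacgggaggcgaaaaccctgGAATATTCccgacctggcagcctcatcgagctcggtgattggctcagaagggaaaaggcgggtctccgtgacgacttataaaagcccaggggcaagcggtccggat
HSPA6: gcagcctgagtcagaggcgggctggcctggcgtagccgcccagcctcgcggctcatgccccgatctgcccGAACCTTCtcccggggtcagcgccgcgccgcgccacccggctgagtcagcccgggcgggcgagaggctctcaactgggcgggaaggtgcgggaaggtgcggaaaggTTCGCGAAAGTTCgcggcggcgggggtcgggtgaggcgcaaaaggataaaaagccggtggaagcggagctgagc
HSPA8: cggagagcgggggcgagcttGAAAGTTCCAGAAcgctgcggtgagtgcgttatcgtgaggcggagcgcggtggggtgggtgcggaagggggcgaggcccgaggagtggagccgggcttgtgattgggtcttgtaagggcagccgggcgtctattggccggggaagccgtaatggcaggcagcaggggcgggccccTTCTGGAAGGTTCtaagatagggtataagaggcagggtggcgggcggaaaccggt

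HSPA1A, the gene called lower after SM30, held a single 2-unit match that begins 106 bases before the start. HSPA6 held a 3-unit match 74 bases before it and a separate 2-unit match 180 bases before it, and HSPA8 held such matches 230 and 55 bases before it. HSPA6 and HSPA8 were not called in any comparison of treated with control cells. The matches describe letters only, and binding was not measured.

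HSPH1 encodes HSP110, a nucleotide exchange factor for HSP70, and DNAJB1 an HSP40 that starts the ATPase cycle of HSP70. HSPH1 (chr13:30608796-30608855, minus strand) read 14.01, 13.98 and 13.98 after SM30 against 14.33, 14.54 and 14.76 in controls. The groups did not overlap, and the mean log2 ratio of -0.56 ± 0.14 (SE, n = 3, adjusted p = 0.0517) lay just beyond the threshold. It passed with 5 of 20 alternative settings, among them the fit of arrays without pairing by letter (adjusted p = 0.0346) and the filter on spots well above background (adjusted p = 0.0322). The AS30 values at 3 h were 14.21, 14.21 and 14.29 against 14.61, 14.46 and 14.46, again without overlap, with a ratio of -0.27 ± 0.14 (SE, n = 3, adjusted p = 0.268). Over 20 alternative settings this ratio lay between -0.34 and 0.38, with 1 change of sign. At 22 h the AS30 values were 14.65, 14.53 and 14.53 against 15.14, 14.49 and 14.59, which overlap, and the ratio was -0.17 ± 0.14 (SE, n = 3, adjusted p = 0.515).

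DNAJB1 (chr19:14486803-14486862, minus strand) read 11.25, 12.05 and 11.24 after SM30 against 11.68, 11.63 and 11.56 in controls, with replicate B above and the others below all controls. The mean log2 ratio was -0.11 ± 0.22 (SE, n = 3, adjusted p = 0.794), and its 95% interval from -0.61 to 0.39 leaves room for changes in either direction. After AS30 the ratio was 0.07 ± 0.22 (SE, n = 3, adjusted p = 0.860) at 3 h and 0.02 ± 0.22 (SE, n = 3, adjusted p = 0.967) at 22 h. The AS30 3 h control array of replicate C, which carried the most HSPA6 signal, also had the most DNAJB1 signal of its group, 12.77 against 12.18 and 11.69. It had the lowest share of spots well above background in its group, 52.4%. Without pair C the DNAJB1 ratio at 3 h after AS30 was 0.36 and adjusted p = 0.292.

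HSP90AA1 encodes the inducible cytosolic HSP90, and its values ran opposite to those of HSPA1A in the SM30 experiment, without passing the threshold. The brightest probe, printed on 10 spots, read 16.09, 16.16 and 16.15 after SM30 against 15.98, 15.71 and 15.69 in controls. All SM30 arrays were above all controls, with a mean log2 ratio of 0.34 ± 0.11 (SE, n = 3, adjusted p = 0.111). Of the other 3 probes, those at chr14:101617856-101618204 and chr14:101619916-101619975 gave 0.38 (higher in 1 of 3 pairs) and 0.52 (3 of 3), and that at chr14:101617145-101617198 gave -0.10 (lower in 3 of 3), with none called. After AS30 the brightest probe gave -0.08 ± 0.11 (SE, n = 3, adjusted p = 0.716) at 3 h, a sign that turned with 75th percentile scaling, and 0.17 ± 0.11 (SE, n = 3, adjusted p = 0.423) at 22 h, when it was higher in 3 of 3 pairs. At 3 h the other 3 probes were each lower in 3 of 3 pairs, by -0.83, -0.63 and -0.05 at chr14:101619916-101619975. At 22 h the probe at chr14:101617145-101617198 was lower in 3 of 3 pairs (-0.22, -0.33 and -0.13). The remaining probes were mixed in direction at 22 h, and none was called at either time.

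HSPB1 encodes HSP27, a small heat shock protein that holds unfolded chains without using ATP. After SM30 its brightest probe read 15.09, 15.47 and 15.53 against 15.19, 15.37 and 15.38, with a ratio of 0.05 ± 0.11 (SE, n = 3, adjusted p = 0.818). For AS30 at 3 h the ratio was -0.14 ± 0.11 (SE, n = 3, adjusted p = 0.452). At 22 h the values were 15.76, 15.64 and 15.78 in AS30 replicates and 15.62, 15.33 and 15.48 in controls, so that every treated array was above every control. HSPB1 was the only member whose brightest probe separated the groups in this comparison, where 12.8% of all probes measured on all arrays of the comparison did so upward and 11.1% downward. The mean log2 ratio was 0.25 ± 0.11 (SE, n = 3, adjusted p = 0.219), and the other 2 probes, which separated the groups as well, each gave 0.28 (adjusted p = 0.158 and 0.223).

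HSPD1 and HSPE1 encode HSP60 and its lid HSP10, which fold proteins of the mitochondrial matrix, and the genes stand head to head on chromosome 2. After SM30 both were lower in 3 of 3 pairs without overlap of the groups, at -0.17 ± 0.12 (SE, n = 3, adjusted p = 0.407) for HSPD1 and -0.15 ± 0.12 (SE, n = 3, adjusted p = 0.455) for HSPE1. With AS30 at 3 h the ratios were -0.19 ± 0.12 (SE, n = 3, adjusted p = 0.331) and -0.06 ± 0.12 (SE, n = 3, adjusted p = 0.772), and both signs turned with 75th percentile scaling, to 0.23 and 0.29. At 22 h they were -0.06 and -0.07. The 2 HSPD1 probes had ratios of opposite sign after SM30, where the dimmer of them gave 0.24 ± 0.12 (SE, n = 3, adjusted p = 0.263).

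**Figure D3:**
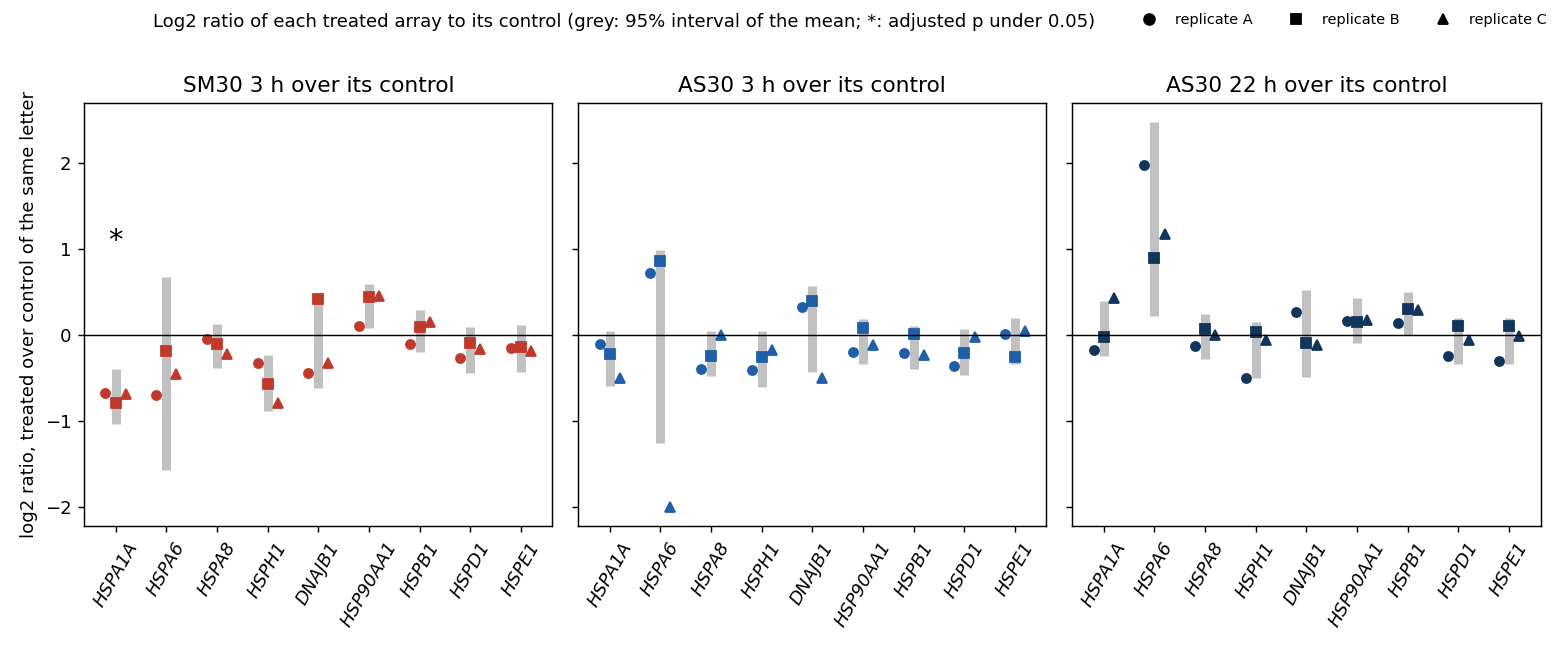
Log2 ratio of each treated array to the control array of the same letter (vertical axis) for the 9 measured genes (horizontal axis) in the 3 comparisons of treated with control cells. Points are the 3 pairs and grey bars the 95% interval of the mean, from the error pooled over the 3 comparisons. The asterisk marks the only called value, HSPA1A after SM30 at -0.71. HSPA6 spans -1.99 to 0.87 at 3 h after AS30 and 0.90 to 1.97 at 22 h.

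In the SM30 comparison, 6 of the 9 genes did not overlap between groups, 5 lower (HSPA1A, HSPA6, HSPD1, HSPE1 and HSPH1) and HSP90AA1 higher, where 23.8% of all probes separated downward and 19.2% upward. For AS30 at 3 h, 3 of 9 separated downward (HSPA8, HSPD1 and HSPH1), where 10.6% of all probes did, and 0 of 9 upward, where 13.2% did. The treated and control arrays of that comparison shared no slide. Of the genes that separated, HSPA1A after SM30 was the only one that also passed the adjusted test.

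Whether the NPs differed was tested on the difference of the log2 ratios at 3 h. None of the 9 genes was called, where 0.014% of all probes were, and 1 of 9 (HSP90AA1) had an unadjusted p under 0.05, against 14.6% of all probes. For HSPA1A the SM30 ratio minus the AS30 ratio was -0.44 (95% interval -0.89 to 0.01, adjusted p = 0.354), so the call after SM30 alone does not show a response that differs between the particles. The interval was -0.74 to 0.18 for HSPH1 and 0.05 to 0.78 for HSP90AA1 (adjusted p = 0.303). The particles differ in diameter, and the SM30 and AS30 experiments each had control cultures of their own.

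The change of the AS30 response with time was likewise tested as a difference, and 0 of 9 genes were called, where 0.0285% of all probes were. With unadjusted p under 0.05 there was 1 gene of 9, HSPB1, against 16.9% of all probes. HSPA6 had the largest estimate, 1.49 (95% interval -0.10 to 3.07, adjusted p = 0.324), which was 0.56 without AS30 3 h pair C. For HSPB1 the difference was 0.39 (95% interval 0.04 to 0.74, adjusted p = 0.261), and for HSPA1A 0.35 (95% interval -0.10 to 0.80, adjusted p = 0.414).

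Untreated cells differed among themselves at some of these genes. Between the AS30 controls at 22 h and at 3 h, 0 of 9 genes were called, where 1.3% of all probes were, and 0 of 9 had an unadjusted p under 0.05, against 14.9%. None of the 9 separated these control groups, where 7.95% of all probes did upward and 6.07% downward. The HSPA1A difference, 22 h minus 3 h, was 0.44 ± 0.26 (SE, n = 3 against 3, adjusted p = 0.464). Between the SM30 and the AS30 controls at 3 h, 2 of 9 genes were called, where 26.8% of all probes were (15.6% higher and 11.1% lower), and 3 of 9 had an unadjusted p under 0.05, against 39.1%. The log2 difference, SM30 controls minus AS30 controls, was -2.12 ± 0.74 (SE, n = 3 against 3, adjusted p = 0.0461) for HSPA6 and 0.35 ± 0.11 (SE, n = 3 against 3, adjusted p = 0.0375) for HSPE1. The groups did not overlap for DNAJB1, HSPA1A, HSPA6 and HSPB1, lower where 18.9% of all probes were, and for HSPD1 and HSPE1, higher where 26.2% were. Without AS30 3 h control replicate C the HSPA6 difference was -0.95 with adjusted p = 0.172, and leaving out any SM30 control array ended both calls (adjusted p from 0.0639 to 0.12). The HSPE1 difference turned to -0.14 (adjusted p = 0.577) with 75th percentile scaling. Both dimmer HSPA1A probes were lower in the SM30 controls, with differences of -1.47 ± 0.34 (SE, n = 3 against 3, adjusted p = 0.00667) and -1.55 ± 0.33 (SE, n = 3 against 3, adjusted p = 0.00408), while the brightest gave -0.53 ± 0.26 (SE, n = 3 against 3, adjusted p = 0.151). Over all 20 member probes, 3 were called higher and 4 lower in the SM30 controls, among them the other probes HSPD1 at chr2:198070208-198070267 (0.61, adjusted p = 0.00735), HSP90AA1 at chr14:101617145-101617198 (0.44, adjusted p = 0.0145) and HSPA8 at chr11:122435629-122435688 (-0.64, adjusted p = 0.00882). The control sets lay on different slides, with different scan date entries in the array headers, so culture set and slide cannot be told apart here.

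Across the 6 groups the order of the HSPA1A means ran from 16.18 ± 0.46 (SD, n = 3) after AS30 at 22 h through 16.10 ± 0.57 in its controls, 15.66 ± 0.32 in the AS30 3 h controls, 15.39 ± 0.25 after AS30 at 3 h and 15.13 ± 0.04 in the SM30 controls to 14.42 ± 0.03 after SM30. Each neighbouring pair in that order overlapped except the last, SM30 and its controls. HSPH1 was lowest after SM30 too, at 13.99 ± 0.02 (SD, n = 3), with no overlap with the next group, AS30 at 3 h (14.24 ± 0.05). For HSPA6 the means ran from 7.84 after AS30 at 22 h (6.80 to 8.99 over its arrays) to 5.15 ± 0.02 after SM30, and neighbours did not overlap below the AS30 3 h group. HSPB1 was highest after AS30 at 22 h, at 15.73 ± 0.07, above the next group without overlap, and DNAJB1 had its only gap between the lowest AS30 group mean, 12.21 ± 0.54, and the SM30 controls, 11.63 ± 0.06. Neighbouring groups all overlapped for HSP90AA1 and HSPD1, and HSPE1 was highest in the SM30 controls, at 16.83 ± 0.05. HSPA8 and HSPD1 were lowest after AS30 at 3 h, at 16.65 ± 0.06 and 16.82 ± 0.11 (SD, n = 3), but their group means spanned only from there to 16.99 and 17.11.

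Genes that work beside the members were taken from lists of heat shock factors, other HSP70 and HSP110 proteins, other J proteins, HSP90 proteins and cochaperones, HSP70 cochaperones, other small heat shock proteins, TRiC chaperonin subunits and prefoldins, mitochondrial partners and other HSF1 targets. Of these, 90 genes were measured. After SM30 3 were called higher and 1 lower, after AS30 at 3 h 2 higher and 2 lower, and after AS30 at 22 h 4 higher and 0 lower. Each of these counts is 4.44% of the 90 genes, against 7.49%, 2.52% and 3.58% of all probes, and the medians of the 90 were -0.06, -0.04 and -0.05. None of the 4 genes of the heat shock factor list, HSF1 included, was called in any of the comparisons with controls, nor any of the 14 TRiC and prefoldin genes, the 14 genes of the HSP90 list, the 6 other HSF1 targets or the 8 genes of the mitochondrial list.

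The called partners were few and included the small heat shock proteins HSPB8 and CRYAB. Of 6 other small heat shock proteins measured, 2 were called after SM30, 1 after AS30 at 3 h and 2 at 22 h. The medians of these 6 were 0.01, 0.61 and -0.13. HSPB8, which works with BAG3 in the disposal of aggregated proteins by autophagy, read 8.66, 8.76 and 8.32 after SM30 against 7.28, 7.34 and 7.20 in controls. It was higher by 1.31 (95% interval 0.87 to 1.75, adjusted p = 0.00799) after SM30, by 0.93 (95% interval 0.49 to 1.37, adjusted p = 0.0493) after AS30 at 3 h and by 1.04 (95% interval 0.60 to 1.48, adjusted p = 0.0322) at 22 h. At 22 h it read 9.65, 8.32 and 9.37 against 8.33, 7.72 and 8.16, so the treated and control groups overlapped. With normexp background correction the HSPB8 ratios were 0.51 after SM30, 0.54 after AS30 at 3 h, no longer called (adjusted p = 0.0584), and 0.57 at 22 h. The HSPB8 call for AS30 at 3 h was lost in 14 of 20 alternative settings, that for 22 h in 9 and that for SM30 in 4. CRYAB, alpha-B crystallin, read 7.57, 7.69 and 7.44 after SM30 against 5.93, 6.16 and 5.92, a rise of 1.56 (95% interval 0.80 to 2.33, adjusted p = 0.0291). This call was lost in 6 of 20 alternative settings, and with normexp correction the ratio was 0.41 (adjusted p = 0.157). At 22 h after AS30 it read 8.58, 8.65 and 9.24 against 6.15, 6.32 and 6.94, a rise of 2.35 (95% interval 1.59 to 3.11, adjusted p = 0.0187), although only 1 of the 3 control arrays was well above background. The CRYAB ratio at 22 h was 0.95 with normexp correction (adjusted p = 0.0214), which lies below that interval, so the size of the rise is uncertain. When only spots well above background were used, which leaves 1 pair, it was 2.30. The CRYAB ratio at 3 h after AS30 was 1.15 (adjusted p = 0.0971), from pairs of 0.69, 2.45 and 0.32.

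The window before the HSPB8 start, at chr12:119178681-119178930 on the plus strand, is shown as an example from the partners called in all 3 comparisons with controls, which were HSPB8 and DNAJB9. It holds 1 match of 2 units, in capitals, that begins 88 bases before the start, while the DNAJB9 window holds no match. Of the 6 partners called in any of these comparisons 5 had a window, and 2 of the 5 (HSPB8 and SIL1) held 2 units and 0 held 3, against 14% and 0.557% of all genes.
HSPB8: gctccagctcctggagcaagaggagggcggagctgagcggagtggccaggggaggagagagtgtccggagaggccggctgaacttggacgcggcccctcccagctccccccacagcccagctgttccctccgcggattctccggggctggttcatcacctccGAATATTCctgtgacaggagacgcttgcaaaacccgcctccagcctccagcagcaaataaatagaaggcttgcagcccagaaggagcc

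DNAJB9, a J protein of the endoplasmic reticulum that serves BiP, was also called in all 3 comparisons. It read 11.62, 11.54 and 11.60 after SM30 against 10.72, 10.68 and 10.85, and the rise was 0.84 (95% interval 0.50 to 1.18, adjusted p = 0.0163). After AS30 the rise was 0.72 (95% interval 0.38 to 1.06, adjusted p = 0.0493) at 3 h and 0.78 (95% interval 0.44 to 1.12, adjusted p = 0.0346) at 22 h. The DNAJB9 call was lost in 14 of 20 alternative settings for AS30 at 3 h, in 10 for 22 h and in 4 for SM30. SIL1, a nucleotide exchange factor for BiP, read 12.73, 12.34 and 12.66 at 22 h after AS30 against 11.33, 11.81 and 11.61 in controls, a rise of 1.00 (95% interval 0.62 to 1.37, adjusted p = 0.0240), and the call was lost in 5 of 20 settings.

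HSPA2, an HSP70 best known from the testis, fell at 3 h with both NPs. It read 11.57, 11.63 and 11.51 after SM30 against 12.64, 12.60 and 12.71 in controls, lower by 1.08 on the log2 scale (95% interval -1.43 to -0.72, adjusted p = 0.00747). After AS30 the pair ratios were -0.77, -1.13 and -0.44, with every treated array below the controls' 12.30 to 12.52, and the mean was -0.78 (95% interval -1.13 to -0.42, adjusted p = 0.0438). At 22 h its ratio was 0.26 (adjusted p = 0.351). DNAJA3, a mitochondrial J protein, fell after AS30 at 3 h, with a log2 ratio of -0.64 (95% interval -0.91 to -0.37, adjusted p = 0.0369). All AS30 3 h arrays lay on a single slide and all of their controls on another. Exposure and slide therefore coincide in the AS30 3 h calls of HSPA2, DNAJA3, HSPB8 and DNAJB9. The AS30 22 h arrays shared a slide with control replicate C only, and control replicates A and B lay on other slides. Exposure and slide are therefore only partly separated in the 22 h calls of HSPB8, CRYAB, DNAJB9 and SIL1. Spots well above background were 64.5%, 56.9% and 67.0% on AS30 22 h arrays A, B and C, and 52.4%, 51.9% and 58.4% on their controls. The HSPA2 call was lost in 3 of 20 alternative settings after SM30 and in 9 for AS30 at 3 h, and the DNAJA3 call in 9. No partner gene was called in the difference between particles or in that between times of the AS30 response. With SM30 pair A, B or C left out, 1, 0 and 0 of the 90 genes were called after SM30. Among all probes 567 of 28620, 289 of 28645 and 298 of 28650 were. Without AS30 3 h pair C, 14 of the 90 were called after AS30 at 3 h, where 3062 of 28517 probes were. Without AS30 22 h pair A or C, 0 and 1 of the 90 were called at 22 h. Among all probes 2 of 27940 and 184 of 26898 were. Without AS30 3 h pair A or B, 0 were called at 3 h, where 202 of 28201 and 81 of 28441 probes were. With slide as a fixed block 0 were called in each of the 3 comparisons. Of all probes, 333 of 28598, 52 of 25136 and 29 of 27811 were called in that fit.

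**Figure D4:**
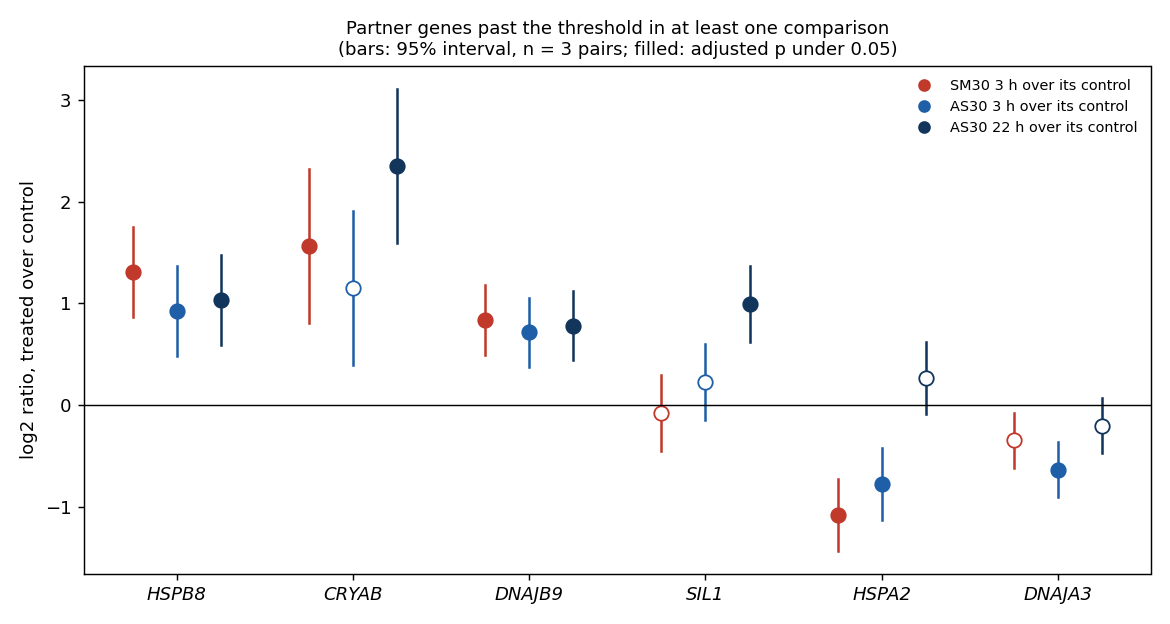
Log2 ratio of treated to control cells (vertical axis) for the 6 partner genes called in at least 1 comparison with controls (horizontal axis), after SM30 at 3 h, AS30 at 3 h and AS30 at 22 h. Points are means of 3 pairs, bars 95% intervals, and filled points have an adjusted p under 0.05. HSPB8 and DNAJB9 are filled in all 3 comparisons, and CRYAB reaches 2.35 at 22 h after AS30.

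Genes whose 9 log2 ratios were most like the mean ratio of HSPA1A, DNAJB1 and HSPH1 were sought among 13623 genes measured in all pairs and well above background on all arrays. The highest Pearson correlations over the 9 ratios, which share their arrays and fall into 3 comparisons, were those of CBR4 (0.94), SPICE1 (0.93), NUDT16 (0.91), UBE3D (0.91) and LOC646091 (0.91). These values describe likeness over 9 points and were not tested. The mean ratio of the 3 seed genes was between -0.59 and -0.31 in the SM30 pairs and between -0.39 and 0.09 in the AS30 pairs.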

How the data were processed

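RNA of 18 A549 cultures in 6 groups of 3 was hybridised to 1-colour Agilent arrays. The authors deposited for every array the output of Agilent Feature Extraction, with spot intensities on a linear scale, and a table of quantile-normalized intensities of the same arrays, used here as an alternative. Groups and letters come from the labels. The members and the partner, marker and motif lists were chosen with earlier results of these data known.

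In R 4.3.3, log2 of the processed signal was quantile normalized over 18 arrays. Spots whose positive and significant flag was 0 were set to missing, outlier spots were dropped, replicate spots averaged, and probes with over 33% missing values removed. Symbols of 18772 kept probes were assigned through their accession with a RefSeq table. A gene is represented by its probe of highest mean signal, and all member probes were tested. Limma 3.58.1 was fitted to the 9 same-letter log2 ratios as 3 classes (6 residual degrees of freedom), following the methods' use of a corresponding control, and to the 18 arrays as 6 groups for control comparisons (12 residual degrees of freedom). Benjamini-Hochberg adjustment ran over all tested probes, with a threshold of 0.05. Groups of 3 limit the precision. The fits were tested on simulated data. Same-letter deviations from the group means correlated between -0.09 and 0.48, above 0.1 in 4 of 9 pairs. Partner genes named are up to 5 called genes per direction and comparison, and genes alike are the 5 with the highest correlation. The dimmer probes and the AS30 control array that stands apart were chosen for description after their values were seen. Motifs were counted in RefSeq windows of GRCh38.p14. Alternatives covered scaling, background correction, spot and probe filters, the deposited table, probe averaging, pairing, slide and single replicates left out, and for partner genes they were added after the data were seen. They are not separate tests of a call. Leaving out a pair of another comparison keeps a log2 ratio and changes only its error. The spot, outlier and probe filters left the median of the 9 members unchanged.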

Additional observations from a re-analysis of the deposited data

How the results depend on the processing

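Under 30 alternative settings, 1163 of 1197 values of single members kept their direction and side of the threshold or stayed uncalled, and 73 uncalled values changed sign. Most of these values were uncalled in the main setting, so the total says little about the called ones. HSPA1A after SM30 kept its call in 12 of 20 settings. Between the control sets at 3 h, HSPA6 kept its call in 8 of 16 settings and HSPE1 in 9 of 16. The count of members called after SM30, 1 in the main setting, was 0 with 75th percentile scaling, with the mean of all probes of a gene and with slide as a fixed block, and 2 with spots well above background and with probes on all 18 arrays. The calls over all probes moved as well, from 2146 of 28664 in the main setting. In the settings that gave 0 they were 2356 of 28664, 1368 of 21031 and 333 of 28598, in the order named. In those that gave 2 they were 2780 of 23660 and 2085 of 23030. Leaving out single pairs gave counts between 0 and 2 after SM30 (0 without SM30 pair A, B or C, 2 without AS30 22 h pair A) and between 0 and 1 after AS30 at 22 h (1 without AS30 3 h pair C). Calls over all probes after SM30 were 567, 289 and 298 without SM30 pair A, B or C. They were 2057 without AS30 22 h pair A. At 22 h after AS30, 1364 probes were called without AS30 3 h pair C, against 1008 in the main setting. Between the control sets at 3 h, the count was 1 with normexp background correction or with all spots kept, 0 in the authors' deposited table, 3 with 75th percentile scaling (HSPA6, HSP90AA1 at -0.44 and HSPA8), 3 with the mean of all probes (HSPE1, HSPA1A at -1.18 and HSPD1 at 0.35), and between 0 and 3 with single control arrays left out (3 without AS30 3 h control B, where DNAJB1 was called at -0.85, 0 without SM30 control A, B or C or without AS30 3 h control C, 1 without AS30 3 h control A). Over all probes, 7668 of 28620 were called between these control sets in the main setting. With normexp, all spots kept and the deposited table the counts were 7195 of 28620, 7331 of 41000 and 7365 of 28642. With 75th percentile scaling and the mean of all probes they were 7580 of 28620 and 5181 of 20992. Single control arrays left out gave between 5249 and 7676. With 75th percentile scaling the difference between control sets reversed for HSPE1, to -0.14, and for HSPA8, to -0.40 (adjusted p = 0.0486). The cause of these shifts was not tested. The largest shift of the median of all probes under that scaling was -0.07.

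Same-letter pairing did not meet the correlation rule, so it rests on the methods. Without the replicate block by letter, 1 member was called after SM30 (HSPH1 in place of HSPA1A, whose log2 ratio was -0.71 and adjusted p = 0.112), and 0 after AS30 at 3 h and at 22 h. Of all probes, 2518 of 28665, 1313 of 28618 and 1408 of 28223 were called in these comparisons. With letter as a replicate block, 0 members were called between AS30 controls at 22 h and 3 h, and 2 between the control sets. There 301 of 28179 and 7857 of 28620 probes were called. Slide as a fixed block gave no value for the comparison of control sets, which share no slide. HSPA1A after SM30 ranged from -0.86 to -0.54, and lost its call in 8 of 20 settings. HSPA6 was the only member not well above background on every array.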
